A study of Mus musculus with 4 samples.

Results

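Accessible regions were examined whose assigned gene carries only a provisional mouse symbol, either Gm followed by a number, used for predicted gene models, or a RIKEN cDNA identifier ending in Rik. They were taken by symbol alone from the table of peaks that differed between Sin3B+/+ and Sin3B-/- LT-HSCs, in which they made up 1010 of 5332 peaks and belonged to 882 genes. The remaining 4322 peaks, called peaks of named genes here, served for comparison. Of the 1010 peaks, 738 were assigned to Gm models and 272 to Rik models. A provisional symbol did not mean a noncoding model, since 125 of the 1010 peaks lay nearest to models annotated as protein coding. Another 56 peaks carried clone-based gene names of the AC type and stayed with the named genes, because their symbols do not follow the rule.

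ATAC-Seq measures accessible chromatin, since the Tn5 transposase inserts adapters into open DNA more readily than into DNA wrapped in nucleosomes. The series held 4 libraries, 2 from Sin3B+/+ mice (labelled WT) and 2 from Sin3B-/- mice (labelled 3BKO), all on a C57BL/6 background. The knockout came from a floxed Sin3B allele and Vav1-iCre, which is active in hematopoietic cells, so Sin3B was removed from the blood lineage rather than from the whole animal. Each library pooled LT-HSCs of 2 mice, for 8 mice in all, sorted from marrow as Lineage-, Sca-1+, cKit+, Flk2-, CD48- and CD150+ cells without stress treatment, and the ages of these mice were not given in the sources used here. The study calls the controls of this experiment Sin3B+/+ in some places and Sin3B F/F in others, so they may have carried unrecombined floxed alleles. The libraries were amplified for 12 PCR cycles. A level is the number of reads in a peak after the authors' scaling of each library, and summed over the table it came to 1986378 and 1657641 for the Sin3B+/+ libraries and to 2837467 and 3102888 for the Sin3B-/- libraries. By estimate 1 read was worth 0.228 and 0.343 in the Sin3B+/+ and 0.625 and 1 in the Sin3B-/- libraries. The scaling thus differed with genotype, and these sums do not rank the libraries by their reads. The targeted gene could not be checked, as no peak of the table was assigned to Sin3b. The sorted cell type could not be checked either, because the table lists only peaks that differed, so a marker gene without a row may still be accessible. For the record, 5 of 10 LT-HSC marker genes (Fgd5, Hoxb5, Meis1, Procr and Slamf1) and 0 of 10 markers of other blood cells had a differing peak.

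Sin3B is a scaffold protein without catalytic activity that brings histone deacetylases to chromatin, where removal of acetyl groups accompanies repression. A provisional symbol says how a gene model was found, not what it does. Such models include long intergenic and antisense RNAs, pseudogenes copied from the mRNAs of other genes, predicted small RNAs, and models marked TEC, which await experimental evidence. A peak is assigned to whichever model lies nearest, so an enhancer, a shared promoter or an isolated open site can all carry such a name.

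The DNA at the centre of the peaks with the largest changes is shown first, because falling and rising peaks are compared for CpG content and position in what follows. Capitals mark CG dinucleotides. The first 3 sequences are from the peaks with the largest falls in Sin3B-/- LT-HSCs and each held 1 CG in 200 bases.
1700027A15Rik, GRCm38 chr1:73072670-73072869, plus strand: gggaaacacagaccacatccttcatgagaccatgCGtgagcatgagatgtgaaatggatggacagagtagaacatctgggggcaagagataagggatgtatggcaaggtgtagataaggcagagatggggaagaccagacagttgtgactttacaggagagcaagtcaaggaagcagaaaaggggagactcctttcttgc
Gm38106, GRCm38 chr1:73200168-73200367, plus strand: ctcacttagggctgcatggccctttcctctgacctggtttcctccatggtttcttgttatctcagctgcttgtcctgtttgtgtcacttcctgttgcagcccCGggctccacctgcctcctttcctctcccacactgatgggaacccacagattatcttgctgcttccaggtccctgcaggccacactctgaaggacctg
Gm23277, GRCm38 chrX:121654664-121654863, plus strand: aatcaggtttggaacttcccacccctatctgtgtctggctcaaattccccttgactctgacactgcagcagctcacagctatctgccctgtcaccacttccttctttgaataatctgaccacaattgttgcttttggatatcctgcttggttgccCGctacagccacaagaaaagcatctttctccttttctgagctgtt
The next 3 are from the peaks with the largest rises and held 5, 6 and 5 CG in 200 bases.
A630091E08Rik, GRCm38 chr7:98564829-98565028, plus strand: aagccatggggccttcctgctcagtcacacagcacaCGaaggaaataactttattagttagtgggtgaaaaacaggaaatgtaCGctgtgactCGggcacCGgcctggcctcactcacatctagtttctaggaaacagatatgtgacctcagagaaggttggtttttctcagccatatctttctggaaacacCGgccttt
Gm28043, GRCm38 chr17:29638012-29638211, plus strand: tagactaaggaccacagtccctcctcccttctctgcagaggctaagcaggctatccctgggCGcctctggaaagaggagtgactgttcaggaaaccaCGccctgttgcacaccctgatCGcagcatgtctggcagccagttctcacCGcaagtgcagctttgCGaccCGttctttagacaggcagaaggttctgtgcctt
Gm26887, GRCm38 chr8:84198017-84198216, plus strand: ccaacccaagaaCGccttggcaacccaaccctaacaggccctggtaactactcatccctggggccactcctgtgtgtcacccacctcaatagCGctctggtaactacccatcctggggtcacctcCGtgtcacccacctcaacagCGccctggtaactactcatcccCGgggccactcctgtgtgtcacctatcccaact
The last pair are the strongest peaks that lay at the start of a provisional gene and of a named protein-coding gene at once, and they held 16 and 14 CG in 200 bases.
4930481B07Rik, GRCm38 chr3:95015904-95016103, plus strand: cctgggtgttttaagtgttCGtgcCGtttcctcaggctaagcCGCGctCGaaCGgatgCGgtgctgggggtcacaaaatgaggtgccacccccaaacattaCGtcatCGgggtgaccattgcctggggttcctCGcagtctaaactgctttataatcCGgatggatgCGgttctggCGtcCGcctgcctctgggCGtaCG
5031425E22Rik, GRCm38 chr5:23433470-23433669, plus strand: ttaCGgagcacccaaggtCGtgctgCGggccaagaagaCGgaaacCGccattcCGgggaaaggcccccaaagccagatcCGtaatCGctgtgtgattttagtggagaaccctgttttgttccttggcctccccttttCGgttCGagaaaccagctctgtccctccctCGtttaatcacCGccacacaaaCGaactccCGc

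On the authors' scaling, nearly all peaks of provisional genes had higher levels in Sin3B-/- LT-HSCs. Of the 1010 peaks, 931 rose and 79 fell in Sin3B-/- LT-HSCs (limma on log2(level + 1), Benjamini-Hochberg adjusted over all 5332 peaks). Among all peaks tested 95.7% of peaks were called higher and 4.29% lower. The table holds only peaks that the authors had already found to differ at an FDR below 0.05 in the same libraries, so these calls describe the peaks and add no evidence that they changed. The libraries of the genotypes did not overlap in any of the 1010 peaks, nor in any of the 4322 others. The 79 peaks that fell were 7.82% of the provisional set (95% Wilson interval 6.32 to 9.64), against 150 peaks or 3.47% (2.96 to 4.06) of those of named genes. Relative to the median peak of each library the provisional set split differently, into 60 rises and 79 falls past the threshold, and the peaks of named genes into 314 rises and 150 falls. Centring each library in this way takes the same amount from every peak's log2 fold change. In a table where 95.7% of peaks were called higher it removes the typical rise by construction. The number of rises thus depended on the scaling of the libraries, the median change over the table being 0.76 on the log2 scale. The number of falls was the same under both, but the table left it little room to differ. Every falling peak was already called, and no provisional peak had a log2 fold change between -0.76 and 0.43. The equal number therefore does not show that the falls are independent of the scaling. Without Sin3B-/- replicate 2 the provisional set had 614 rises and 76 falls.

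The size of the rise was much alike in both sets. The median log2 fold change, Sin3B-/- minus Sin3B+/+, was 0.78 over the provisional set (interquartile range 0.63 to 0.97) and 0.75 over the named set, and its median relative to the libraries' own medians was 0.03 and 0.00. A log2 fold change of at least 1 was reached by 222 peaks of provisional genes (22.0%) and 971 peaks of named genes (22.5%). Among the peaks that fell the median was -1.41 for provisional and -1.18 for named genes, and 66 and 106 of them fell by at least 1 log2 unit. The peaks of Gm5075, Gm10095 and Gm45888, all processed pseudogenes, lay closest to the median. None of these 3 passed the threshold with centred libraries. At the peak assigned to Gm5075 the level was 83.5 and 67.2 in Sin3B+/+ and 138 and 121 in Sin3B-/- LT-HSCs, so a typical member rose by less than a doubling in both libraries.

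**Figure D1:**
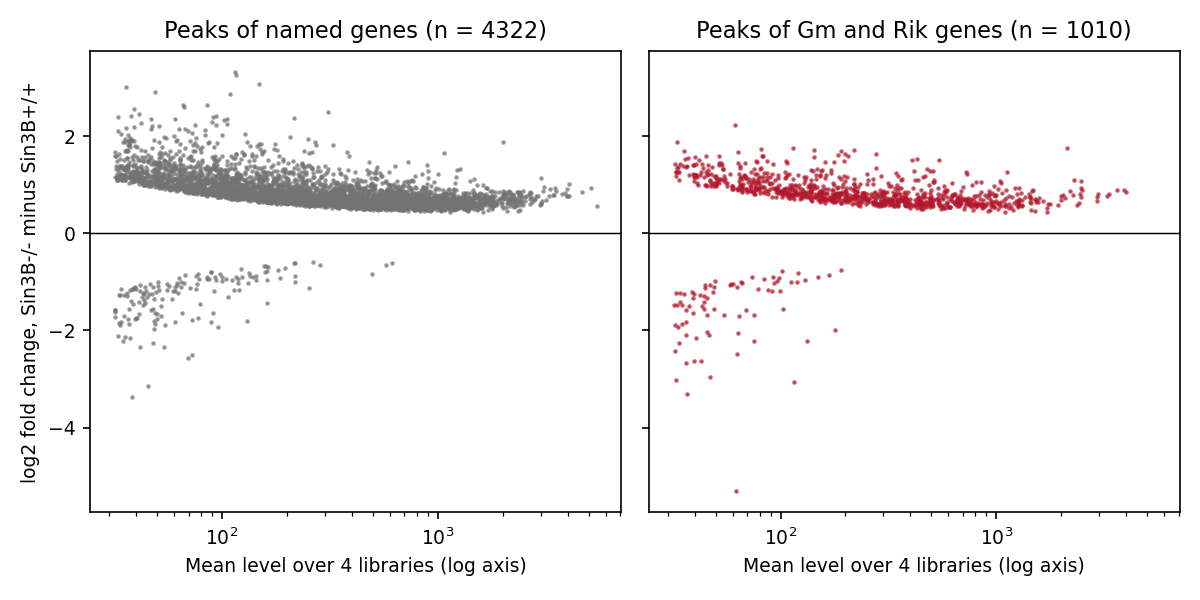
Mean level over the 4 libraries (log axis) against the log2 fold change for each peak of named genes (n = 4322) and of Gm and Rik genes (n = 1010). The 79 falling peaks of Gm and Rik genes all lie below a mean level of 191, and at low levels only larger changes are present in the table in either direction.

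Peaks of provisional genes had lower median levels than peaks of named genes, but not when only peaks away from their gene's start were taken. Their median level was 165 and 143 in Sin3B+/+ libraries and 254 and 275.5 in Sin3B-/- libraries, against 227, 189, 339.9 and 362 for peaks of named genes. In log2 units the gap was -0.46 and -0.40 in Sin3B+/+ and -0.42 and -0.39 in Sin3B-/-, and the change of the gap with genotype was 0.02 (exact permutation test over libraries, two-sided, p = 0.67; 0.33 is the smallest value that 2 against 2 libraries allow). Once only peaks more than 1000 bp from the start of their own gene were kept, the gap turned over, to 0.12 and 0.18 in Sin3B+/+ and 0.08 and 0.05 in Sin3B-/- (change -0.08, exact p = 0.33). The provisional set took 16.2% to 16.5% of the summed level of each library. Peak widths were close, with medians of 672.5 bp (provisional) and 688 bp (named).

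Most provisional peaks lay away from the start of their gene. A start of the assigned gene lay within 1000 bp of the peak centre for 286 provisional peaks (28.4%, 95% Wilson interval 25.7 to 31.2) and for 1797 named peaks (41.6%, 40.1 to 43.1). Only 298 provisional peaks (29.5%) lay inside their gene, 227 (22.5%) lay upstream and 255 (25.2%) downstream of it. A named protein-coding gene started nearby for some, since 139 peaks (13.8%, 11.8 to 16.02) had such a start within 1000 bp, as did 1779 (41.2%) of the named set. The median distance to such a start was 27996.5 bp for provisional and 2985.5 bp for named peaks. These contrasts follow in part from the choice of the set. A peak is assigned to its nearest model, so one close to a named start mostly carries the named symbol. The nearest model to a peak was thus often one that the peak did not touch, and 157 provisional peaks (15.5%) had their centre in the body of a named protein-coding gene.

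Peaks at shared starts had high levels, with a median of 851 against 205 for the whole provisional set. Within 1000 bp of both their own start and a named protein-coding start lay 117 peaks, and in 110 of these the genes were on opposite strands, an arrangement that includes divergent gene pairs. Of the 117 peaks 116 rose, beside 95.7% of all peaks of the table. Their median log2 fold change was 0.67, under the 0.76 of the whole table. Neither trait was particular to shared starts. Peaks of named genes within 1000 bp of a named protein-coding start had a median level of 580 and a median log2 fold change of 0.66. The peak at the starts of 4930481B07Rik, a processed transcript, and Zfp687, which encodes a zinc finger protein (chr3:95015333-95016673), had levels of 2854 and 2629 in Sin3B+/+ and 4827 and 5388 in Sin3B-/- LT-HSCs. That at the starts of the lincRNA gene 5031425E22Rik and of Kmt2e (chr5:23432639-23434499) had levels of 2622 and 2183 in Sin3B+/+ and 3878 and 4291 in Sin3B-/-. Both were higher in each Sin3B-/- library, by 0.90 and 0.77 log2 units (SE 0.22). One shared start fell, at Gm12198 and Adamts2, from 47.5 and 49.4 to 23.7 and 17. The peaks of 5031425E22Rik and Gm12198 were chosen after their values were seen.

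**Figure D2:**
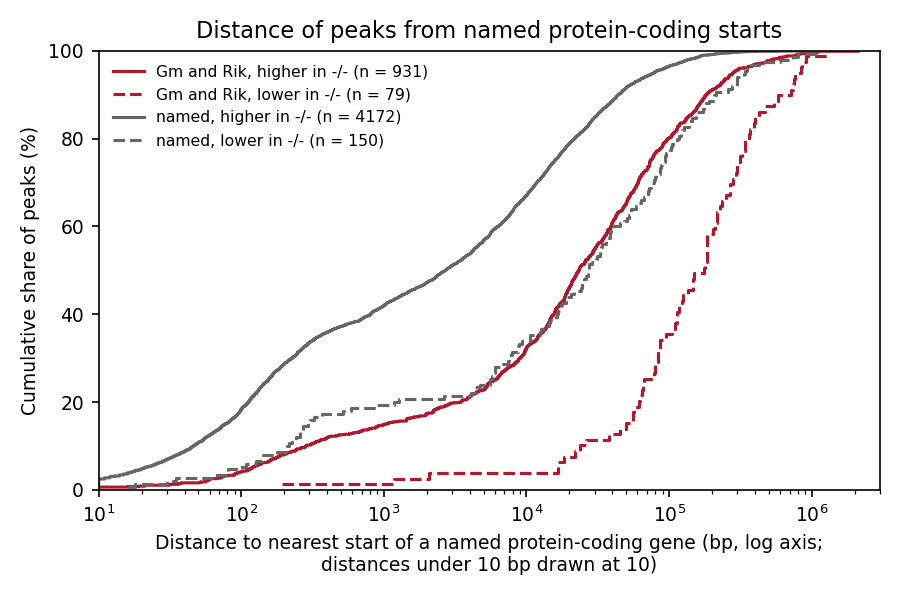
Cumulative share of peaks (%) by distance of the peak centre to the nearest start of a named protein-coding gene (bp, log axis), for peaks higher and lower in Sin3B-/- LT-HSCs. Lower peaks of Gm and Rik genes lie farthest out, with a median of 174833 bp against 23377 bp for those that rose.

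The peaks that fell were weak and remote. Their median level over the 4 libraries was 48.6, against 233 for provisional peaks that rose, and 0 of 79 exceeded 256. That mean includes the change itself, so the levels in Sin3B+/+ libraries alone lay closer together. Across the Sin3B+/+ replicates the falling peaks ran from 40.2 through a median of 73.0 to 293 and from 39.8 through 74.4 to 278. The rising provisional peaks had medians of 181 and 160 there. Across the Sin3B-/- replicates the falling peaks ran from 3.75 through 28.1 to 176 and from 1 through 24 to 116. The typical falling peak thus kept a ratio of 0.38 of its Sin3B+/+ level. Falling peaks of named genes were weak as well, with a median level of 59.0 against 294.5 for rising ones. In the Sin3B+/+ libraries the falling named peaks had medians of 81.0 and 86.0. A distance of more than 100 kb to the nearest named protein-coding start was found for 51 of 79 falling peaks (64.6%, 95% Wilson interval 53.6 to 74.2) and for 185 of 931 rising ones (19.9%, 17.4 to 22.6). Among named genes the same held for 35 of 150 falling peaks (23.3%) and 147 of 4172 rising ones (3.52%). Only 3 falling provisional peaks (3.80%) lay in the body of a named protein-coding gene, against 154 rising ones (16.5%).

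When peaks at a like distance were set side by side, the provisional and named sets gave close shares of falls beyond 10 kb. Beyond 100 kb, 51 of 236 provisional peaks fell (21.6%, 95% Wilson interval 16.8 to 27.3) and 35 of 182 named ones (19.2%, 14.2 to 25.6). Between 10 and 100 kb the shares were 5.31% (25 of 471) and 4.95% (64 of 1292). Between 1 and 10 kb they were 1.22% (2 of 164) and 2.06% (22 of 1069), and within 1 kb 0.72% (1 of 139) and 1.63% (29 of 1779). Up to 10 kb the provisional share was thus the lower, on very few falls. By mean level, 52 of 145 provisional peaks (35.9%, 28.5 to 43.9) and 83 of 519 named peaks (15.99%, 13.1 to 19.4) fell at levels up to 64, and 10.6% (21 of 199) and 5.43% (40 of 737) between 64 and 128. From 128 to 256 the shares were 2.65% (6 of 226) and 2.72% (22 of 808), and above 256 they were 0 of 440 and 5 of 2258 peaks. The mean level includes the Sin3B-/- libraries, so a fall lowers it. Beyond 100 kb and with a mean level up to 128, 47 of 107 provisional peaks (43.9%) and 30 of 76 named peaks (39.5%) fell, and above that level 4 of 129 and 5 of 106. These are counts of peaks in the same 4 libraries, and no test was made of the difference between the sets. With only peaks of a mean level of at least 50 kept, 36 of the 79 falls remained in the count.

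**Figure D3:**
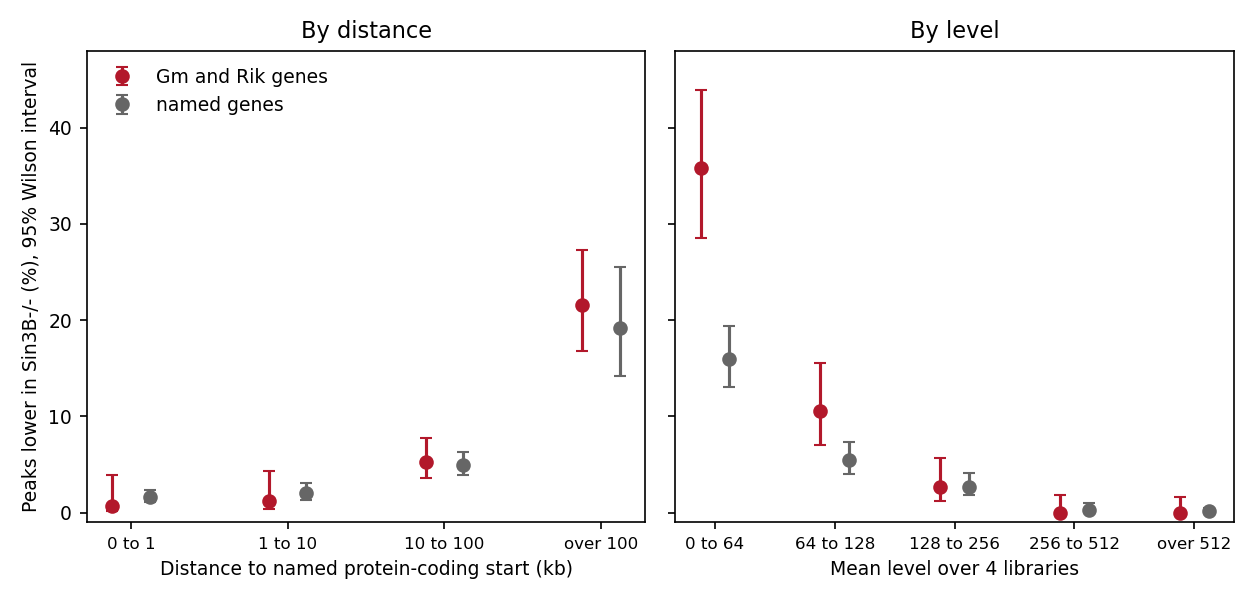
Share of peaks lower in Sin3B-/- LT-HSCs (%) by distance to the nearest named protein-coding start (kb) and by mean level over the 4 libraries, with 95% Wilson intervals, for peaks of Gm and Rik genes and of named genes. Beyond 100 kb the sets gave 21.6% and 19.2%, and at mean levels up to 64 they gave 35.9% and 15.99%.

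In both sets falling peaks lay farther from other peaks of the table than rising ones did. The median distance from a falling provisional peak to the next peak of the table was 375466 bp, against 54565 bp for a rising one, and for named genes 318530 bp and 39845 bp. Another peak of the table lay within 100 kb of 17 falling peaks (21.5%) and of 586 rising ones (62.9%), and in the named set of 26.0% and 69.2%. Another falling peak lay within 100 kb of 10 of the 79 (12.7%) and of 8.67% of falling named peaks. They came from 75 genes and from every chromosome with peaks except 16 and 17, on which only 6 of 135 and 29 of 328 peaks had a provisional name and 20 and 23 had a clone-based one. The share of provisional names was highest on chromosome 12, at 31.3% (67 of 214 peaks).

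Models with more than 1 falling peak numbered 4 and are given although they were picked out after their values were seen. Gm25722, a predicted miscellaneous RNA, had falling peaks 301596 bp and 342475 bp from the start of Auts2, a gene known from neural development. They lay 41741 bp and 82620 bp from the start of Gm25722 itself. The stronger of them, chr5:132883914-132884683, had levels of 293 and 278 in Sin3B+/+ and 66.85 and 75 in Sin3B-/- LT-HSCs. Gm5356, a processed pseudogene, had falling peaks 209654 bp and 228312 bp from Sall1, a zinc finger transcription factor gene of kidney and limb development. They lay 66256 bp and 84914 bp from the start of Gm5356 itself. The nearer went from 47.5 and 65.1 to 14.4 and 8. Gm16084, a lincRNA, fell at its start from 61.6 and 66.15 to 10.6 and 8, and at a second site 11456 bp from it from 127 and 128 to 83.1 and 54. Its nearest named protein-coding start, that of the T cell and progenitor factor gene Bcl11b, was 843207 bp away. Gm48271, a TEC model, fell at peaks 279852 bp and 294832 bp from Ascc3, where the log2 fold changes were -1.42 and -1.26. As in every falling peak of the set, both Sin3B-/- libraries lay under both Sin3B+/+ libraries in these 8 peaks.

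The largest falls left little signal. The peak assigned to 1700027A15Rik (antisense, chr1:73072381-73073157) lay 50215 bp from its start. Its level went from 122 and 121 to 3.75 and 1, an estimated 7 reads in both Sin3B-/- libraries together. The ratio to Sin3B+/+ was 0.0196 (95% Poisson interval 0.00786 to 0.0403, for counting error only). Gm38106, a TEC model with its peak in the same region (chr1:73199936-73200598), went from 64.3 and 69.2 to 10.6 and 3. The nearest named protein-coding start was that of Tnp1 for both, at 56860 bp and 184358 bp. The peak assigned to Gm23277, a predicted snoRNA (chrX:121654273-121655253), lay 57326 bp from its start and 742638 bp from Nap1l3. Its level went from 207 and 206 to 24.99 and 23, and the log2 fold change was -3.05 (SE 0.22, limma adjusted p = 1.55e-42). This was the strongest of the 6 largest falls in both Sin3B+/+ libraries. The peak of Gm18071, a processed pseudogene with its start 215082 bp away, went from 58.9 and 59.3 to 6.87 and 6. That of Gm22974, a predicted snRNA, lay 74313 bp from its start and 201861 bp from the adhesion receptor gene Adgrl3. It went from 78.95 and 89.1 to 8.12 and 12. The SE was the same for every peak because limma shrank all variances to one value, so it understates the error of the weakest peaks. The p-values rest on the same value, so they restate the size of the fold change and not the replicate spread of a peak.

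The peaks with the 6 largest rises lay 8721 to 70706 bp from a named protein-coding start, and those with the 6 largest falls 56860 to 843207 bp. A630091E08Rik, a lincRNA 70706 bp from Lrrc32, which encodes a surface protein that binds latent TGF-beta, went from 24.6 and 17.5 to 102 and 101 at chr7:98564664-98565193, a log2 fold change of 2.23 (SE 0.22, limma adjusted p = 4.54e-23). Gm26887, a lincRNA 10402 bp from Mir23a, a microRNA gene known from myeloid differentiation, went from 1132 and 830.2 to 3419.55 and 3157 at chr8:84197321-84198912. Of the 6 largest rises it had by far the highest level. Gm20467, a lincRNA 10786 bp from the homeobox gene Nkx2-3, went from 105 and 98.4 to 322 and 351. Gm14455, an antisense model in the body of the adaptor gene Cass4, went from 52.5 and 51.1 to 166 and 188. The protein-coding models Gm28043, whose peak lay in the body of the ubiquitin ligase gene Rnf8, and Gm45233, in that of Etfb, which encodes a subunit of the electron transfer flavoprotein, went from 10.5 and 16.8 to 61.9 and 43 and from 38.1 and 35.65 to 129 and 122. Centring each library on its median takes the same amount from every peak. After it the 6 rises were still at least 0.97 log2 units, which follows from their size.

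**Figure D4:**
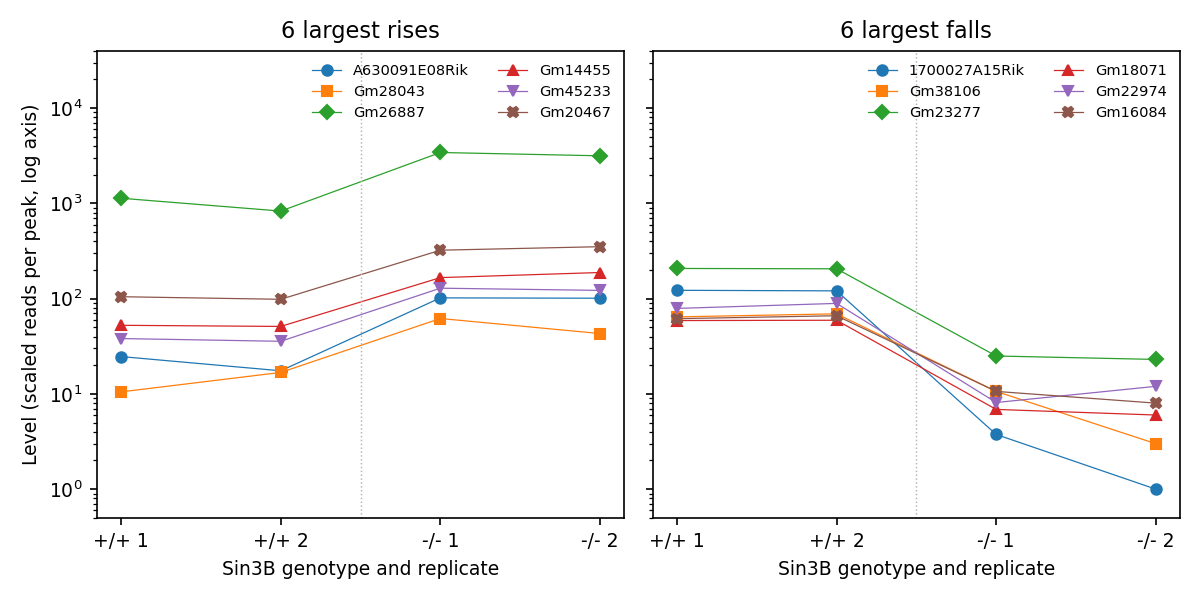
Levels (scaled reads per peak, log axis) in the 4 libraries for the 6 peaks of Gm and Rik genes with the largest rises and the 6 with the largest falls. The genotypes do not overlap in any of the 12 peaks, which was a condition of their choice and held for all 1010 peaks of the set.

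The highest levels were at peaks on or near gene starts. 4932412D23Rik, a lincRNA whose peak overlapped its start, 32137 bp from Zbtb20, had levels of 2884 and 2835 in Sin3B+/+ and 5055 and 5270 in Sin3B-/- LT-HSCs. Gm7461, a TEC model lying wholly inside its peak, had 2787 and 2285 against 4659.78 and 4758, and Gm16278, a processed transcript 461 bp from the start of Rab40c, had 2629 and 2227 against 3929 and 4535. With 4930481B07Rik these were the 4 strongest peaks of the set, and each rose by 0.80 to 0.90 log2 units, or by 0.05 to 0.15 with each library centred on its median, where none of the 4 passed the threshold.

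A few models collected several peaks. A single peak was found at 783 of the 882 genes, at least 2 peaks at 99 and at least 3 at 19. Gm20388, with 10 peaks, is a protein-coding model annotated over 4.43 Mb of chromosome 8, in which the nearest named protein-coding starts were those of 9 genes, Usp10, Cbfa2t3 and Abcb10 among them. All 10 peaks rose, by 0.60 to 1.56 log2 units, in a table where 95.7% of all peaks rose. With each library centred on its median 4 of the 10 lay below 0 and only 1 passed the threshold. The mean levels of the 10 ran from 37.1 to 1572. The strongest, 21321 bp from Cbfa2t3, a corepressor gene of hematopoietic cells, had levels of 1274 and 1107 in Sin3B+/+ and 1916 and 1992 in Sin3B-/-. Its weakest went from 17.1 and 19.5 to 58.7 and 53, a larger fold change at a lower level. Gm44710, an antisense model, had 4 peaks that were all within 2847 bp of the start of Zfp36, which encodes an RNA-binding protein that destabilizes mRNAs. The strongest of these went from 756 and 572 to 1603 and 1545, and the 4 rose by 1.05 to 1.26 log2 units, or by 0.29 to 0.51 after centring, where 1 of the 4 passed the threshold. 1700108F19Rik (4 peaks, 0.67 to 1.27) and 5430401H09Rik (4 peaks, 0.75 to 0.98; nearest named starts Prkar2b and Pik3cg) rose throughout as well, although after centring 2 peaks of 1700108F19Rik lay below 0, the peaks of 5430401H09Rik stood at 0.00 to 0.23 and none of the 8 passed the threshold.

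Some of the genes that the study had listed from RNA expression had a peak in the table. Of 36 provisional genes in its expression clusters of LSK cells 3 had a peak (2610035D17Rik, Gm10076 and Gm15261), and of 23 in its LT-HSC pseudotime modules 2 had one (5330439M10Rik and Gm16104), with no share over all provisional genes computed beside these counts. All 8 of their peaks rose, as did 95.7% of all peaks of the table, so the count does not set them apart. Their adjusted p-values from limma lay between 3.97e-05 and 0.00525. With each library centred on its median the 3 peaks of 2610035D17Rik, 1 of 2 of Gm10076 and that of Gm15261 lay below 0. None of the 8 then passed the threshold. The strongest peak of 2610035D17Rik, a lincRNA with this peak 391573 bp from the zinc transporter gene Slc39a11, went from 339.5 and 356 to 537 and 546. Gm10076, a lincRNA 164298 bp from the signalling inhibitor gene Spry2, had neighbouring peaks with 375 and 343 against 554 and 544, and 102 and 94.9 against 183 and 197. The peak of 5330439M10Rik, 38477 bp from Mdm1, went from 238 and 185 to 366 and 404. At Gm16104, whose peak lay in the body of the transcription factor gene Nfic, the level went from 295 and 264 to 462 and 510.

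The share of peaks that fell is given by type of model, with no test between types. The set held 566 peaks of long noncoding models, 174 of pseudogenes, 125 of protein-coding models, 74 of TEC models and 71 of small RNA models. Falls made up 12 of 71 peaks (16.9%, 95% Wilson interval 9.94 to 27.3) assigned to small RNA models and 24 of 174 (13.8%, 9.45 to 19.7) assigned to pseudogenes. They made up 36 of 566 (6.36%, 4.63 to 8.68) of long noncoding, 5 of 74 (6.76%, 2.92 to 14.9) of TEC and 2 of 125 (1.60%, 0.44 to 5.65) of protein-coding models, so that this last share was under the 4.29% of the whole table. All 24 falling pseudogene peaks were assigned to processed pseudogenes, of which the set held 147 peaks. These 24 peaks lay 1159 to 263028 bp from the start of their own model. Small RNA and pseudogene models were also the ones most often far from named genes, with 38.0% and 33.9% of their peaks over 100 kb from a named protein-coding start, against 21.9% for long noncoding, 20.3% for TEC and 8.80% for protein-coding models. Gm symbols held 71 falls in 738 peaks (9.62%) and Rik symbols 8 in 272 (2.94%). Rik peaks had the higher median level, 287 against 184. Distance, level and type of model moved together here, and their separate parts were not tested.

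Among the 12 falling small RNA peaks the largest falls after Gm23277 and Gm22974 were assigned to snoRNA and snRNA models. These were picked out after their values were seen. The 12 peaks lay 3802 to 82620 bp from the start of their own model, so they were near such models rather than on them. The peak assigned to Gm23273, a predicted snoRNA, lay 13799 bp from its start and 398955 bp from Chrm2. Its level went from 70.7 and 77.8 to 8.75 and 14. The peak of Gm26435, a predicted snRNA, lay 21609 bp from its start and 113525 bp from Snx19. It went from 67.1 and 67.2 to 19.4 and 5. That of Gm23429, a predicted snRNA, lay 15523 bp from its start and 1286196 bp from Adgrl3. Its level went from 226 and 211 to 50.6 and 42. As in every falling peak of the set, the level in both Sin3B-/- libraries lay below that in both Sin3B+/+ libraries.

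Falling and rising peaks were set side by side for CpG content and for 6 motifs, with no test. In the central 300 bp, peaks of provisional genes that fell held a median of 3 CG dinucleotides and those that rose 6, against 4 and 8 for named genes, whereas the GC content was 49.7% and 52.0% (53.3% and 54.7% for named genes). The motif letters were searched on both strands. TGTGGTT, the core of the RUNX motif recognised by the hematopoietic factor RUNX1, was present in 19 of 79 falling peaks (24.1%) and 123 of 931 rising ones (13.2%). Named genes showed 39 of 150 (26.0%) and 446 of 4172 (10.7%), and the share over all peaks was 11.8%. AGATAA, the GATA core, was present in 26.6% of falling and 22.2% of rising provisional peaks and in 14.7% and 16.8% of named ones (17.9% of all peaks). CCAAT was in 35.2% of provisional and 35.6% of named peaks (35.5% of all), CCGGAAG of ETS factors in 7.62% and 9.65% (9.26%), TGANTCA of AP-1 in 13.0% and 9.83% (10.4%) and TGACGTCA of CREB factors in 1.98% and 1.99% (1.99%). Such matches describe letters in a window and are no evidence of binding.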

How the data were processed

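The data were 4 ATAC-Seq libraries of sorted LT-HSCs, 2 per genotype. Per the study's methods and the submitters' processing notes, the authors trimmed reads with Trimmomatic, aligned them with Bowtie2, called peaks with MACS2, and normalized and tested them with DiffBind and DESeq2; versions were not given in the sources used here. The deposited values per library are a signal, namely reads in a peak times a scaling factor of that library. Columns of the authors with log2 mean levels and fold, p-values and FDR were not used. The submitters' notes name mm9 and the methods mm10; gene coordinates equalled those of GENCODE M21 on GRCm38 for 5150 of 5330 matched peaks, so GRCm38 (RefSeq sequence) was used.

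limma 3.58.1 (R 4.3.3) was fitted on log2(level + 1) over all 5332 peaks with genotype alone, two-sided, with Benjamini-Hochberg adjustment and a threshold of 0.05; the pseudocount understates changes of low peaks. The step was tested on simulated data in which few peaks changed, in both directions, and the libraries had a common scale. The real peaks were all chosen as differing and most rose, so that test does not cover this setting. p-values rest on a spread between libraries that is shared by all peaks, each library being a biological replicate by the study's account. They follow from the size of a peak's fold change and do not measure the spread of that peak's own replicates. Distances run from peak centres to starts of GENCODE M21 basic transcripts. Sequence came from the central 300 bp, of which 200 are printed. Wilson intervals (95%) cover counting of peaks only. Total library depth is unknown; 1 read was estimated, from the steps of low values, to be worth 0.228 and 0.343 in Sin3B+/+ and 0.625 and 1 in Sin3B-/- libraries. The members and lists were chosen with earlier results of these data known. Peaks named in the text were the 6 largest rises and falls, the 4 highest, those of the genes with most peaks (ties kept), those of listed genes and the 3 nearest to the median change. The largest rises and falls were taken among called peaks whose genotypes did not overlap, which held for every peak of the table. Marker, expression and pseudotime lists were only looked up. Alternatives were other pseudocounts, a level filter, centred libraries, a replicate block, a stricter threshold, 1 library left out, 1 peak per gene and no protein-coding models. Python 3.11.15, pandas 2.3.3, scipy 1.17.1, pysam 0.24.0 and matplotlib 3.10.9 were used.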

Additional observations from a re-analysis of the deposited data

How the results depend on the processing

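Among the 1010 peaks of provisional genes the 931 rises and 79 falls stood at 923 and 79 with the replicate number as a block. Same-numbered libraries came from different mice and their deviations correlated at -0.10, so the crossed pairing was added after the data were seen and gave 931 and 79. Centring each library on its median left 60 rises and a median log2 fold change of 0.025. A mean level of at least 50 left 36 falls among fewer peaks. Leaving out 1 library gave 614 to 930 rises, 76 to 79 falls and medians of 0.65 to 0.89, and the lowest counts were those without Sin3B-/- replicate 2 (the lone library was assumed to vary like the other genotype). Other pseudocounts, a threshold of 0.01, 1 peak per gene and the set less protein-coding models kept both counts within 1.5 times. The share of peaks near a named start was 22.3% within 5000 bp. For peaks more than 1000 bp from their own start the median level gap became 0.060 and its change with genotype -0.084; the cause was not tested.

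Of 480 values for the 49 named peaks under the alternatives, 435 kept direction and call, 34 lost the call and 11 reversed, all 11 with centred libraries. Centring takes the same amount from every peak, so a reversal or lost call there follows from the size of the peak's rise. The reversed values were -0.050, -0.077 and -0.12 for 2610035D17Rik, -0.14 for Gm10076, -0.087 and -0.012 for 1700108F19Rik, -0.033, -0.15, -0.035 and -0.018 for Gm20388 and -0.093 for Gm15261. Without Sin3B-/- replicate 2, 8 named peaks lost the call. The planned edgeR and DESeq2 fits on recovered reads were not run, because the deposited values did not pass the tolerance set for recovering whole reads, although a step per library could be estimated. At the peak assigned to 1700027A15Rik, with an estimated 7 reads over both Sin3B-/- libraries, depth limits the size of the fall.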
